A study of Sus scrofa with 6 samples.

Results

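The dual-specificity MAP kinase phosphatases (DUSP, also called MKP) were described in neonatal pig Sertoli cells (NPSC), the supporting cells of the seminiferous tubule, at baseline and after contact with human serum that held active complement. Of 10 genes listed (DUSP1, DUSP2, DUSP4, DUSP5, DUSP6, DUSP7, DUSP8, DUSP10, DUSP14 and DUSP16), 4 had an identifier in the files that the table of names pairs with the symbol: DUSP1, DUSP4, DUSP10 and DUSP14. They are 4 of the 25149 genes counted and of the 17512 tested, and the other 6 were not analysed here. The family was chosen by role, with results of the comparison of complement NPSC with baseline NPSC already known. The difference between these groups is therefore given for the 4 genes as a description and not as support for a response of the family.

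MAP kinases (ERK, JNK and p38) are switched on by phosphorylation of a threonine and a tyrosine in the same loop, and a DUSP removes both phosphates and switches the kinase off. Many DUSP genes are themselves transcribed when MAP kinases are active, so they form a negative feedback, and several are immediate early genes whose RNA rises within an hour of contact with serum or stress. DUSP1 and DUSP4 are nuclear phosphatases that act on ERK, JNK and p38, DUSP10 prefers p38 and JNK, and DUSP14 is a small atypical enzyme that lacks the kinase-binding domain of the others.

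All 6 samples were Sertoli cells of wild-type Duroc-Landrace pigs aged 3 to 5 days, isolated from testes that the study collected from 3 litters, and grown in DMEM with 10% fetal bovine serum at 37 °C and 5% CO2. In the 3 baseline NPSC plates a part of the medium was replaced with fresh DMEM. In the 3 complement NPSC plates it was replaced with pooled normal human serum, 1 volume to 1 of medium, with complement left active, for 90 min. No plate with heat-inactivated serum was sequenced, so complement and the other contents of human serum cannot be told apart. Neither the labels nor the methods tie a plate to a litter, so p-values measure the spread between plates. In these bulk samples, fewer cells of a type and less RNA per cell cannot be told apart either. The RNA of a gene cannot be assigned to a single cell type.

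Counts on genes came to 6796183 to 8371923 per baseline library and to 3641518 to 6403606 per complement library, and every complement library was below every baseline library. Of 13 Sertoli cell markers, 10 were counted, led by CLU and CLDN11. Their summed level was 5045 to 7761 CPM (counts scaled to the TMM-adjusted library size) in baseline NPSC and 3312 to 3938 CPM in complement NPSC, and 6 of the 10 were lower in all 3 complement libraries. edgeR called 0 of the 10, with 6 lower and 2 higher (TF at 7.90 and 15.2 CPM and DHH at 10.98 and 17.0 CPM, named after their values were seen) at an unadjusted p under 0.05, and DESeq2 called CLU lower (4694 and 2634 CPM). Leydig cell markers, led by INSL3 and CYP17A1, summed to 936 to 1139 CPM in baseline NPSC and to 713 to 760 CPM in complement NPSC, with CYP11A1 at 0 counts in every library. Peritubular myoid cell markers, led by ACTA2 and TAGLN, summed to 2980 to 4426 and 2355 to 4377 CPM, respectively, and MYH11 was at 0 counts in every library. Macrophage markers, led by CD68 and CSF1R, came to 67.6 to 88.3 and 53.5 to 97.3 CPM, endothelial markers, led by KDR and PECAM1, to 367 to 556 and 256 to 608 CPM, and germ cell markers, led by KIT and UCHL1, to 237 to 378 and 178 to 327 CPM. Counts on 48 olfactory receptor genes, taken to be silent here, reached 1.30 to 2.12 CPM per kilobase in baseline NPSC. They reached 3.51 and 3.85 in complement replicates 1 and 2 and 1.68 in complement replicate 3. The silence of these genes was not tested. The density of these olfactory receptor counts times exon length is called the expected background of a gene. It is an average over genes and can miss the counts of a single gene. STYXL2, a listed phosphatase, had 1 to 8 counts per library, and its expected background was 1037% of its counts. CYP11A1 and MYH11 lie below it, with 9.99 to 38.8 counts per library expected, so no absence of a cell type is read from their zeros. The 2 Sertoli markers with a higher mean, TF and DHH, had 46.9% and 24.9% of their counts expected as background, and their log2 fold changes went from 0.94 and 0.63 to 1.26 and 0.82 after subtraction and to 0.01 and 0.19 with olfactory receptor density as a covariate. For the 6 lower in all 3 complement libraries, they went from −0.76 (GATA4), −0.66 (WT1), −0.63 (CLDN11), −0.73 (INHA), −0.83 (CLU) and −0.70 (CTSL) to −0.55, −0.53, −0.38, −0.44, −0.54 and −0.65 after subtraction. With the covariate they were −0.51, −0.65, −0.49, −0.70, −0.58 and −0.61. In both fits edgeR called 0 of the 10. The part of these markers and of this background in the results was not tested except where values are given.

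Of the 4 genes matched, DUSP4 had the highest level at baseline. Per kilobase of exon, baseline NPSC held 133 ± 35.6 CPM of DUSP4 (SD, n = 3), 74.2 ± 6.42 of DUSP1, 39.03 ± 13.3 of DUSP14 and 18.1 ± 0.613 of DUSP10. The ranges of neighbours in this order did not overlap over the 3 baseline libraries: 102 to 172 for DUSP4, 67.0 to 79.2 for DUSP1, 24.4 to 50.3 for DUSP14 and 17.4 to 18.7 for DUSP10. In baseline NPSC the level of DUSP4 per kilobase was above that of 96.9% to 98.1% of tested genes and that of DUSP10 above 67.1% to 69.6%. In complement NPSC the order was DUSP1 at 135 ± 34.7, DUSP4 at 116 ± 17.6, DUSP10 at 41.6 ± 9.77 and DUSP14 at 30.9 ± 7.11 CPM per kilobase (SD, n = 3). There the ranges of DUSP1 (105 to 173) and DUSP4 (101 to 136) overlapped, as did those of DUSP10 (34.4 to 52.7) and DUSP14 (26.3 to 39.1). DUSP10 then lay above 89.5% to 91.2% of tested genes.

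DUSP10 (ENSSSCG00000010831), a phosphatase of p38 and JNK, lies on the minus strand of chromosome 10 from 12977461 to 13015992 in the unnamed build of the files, with 4 exon blocks that sum to 2546 bp. It had 318, 307 and 337 counts in baseline replicates 1 to 3 and 432, 367 and 773 in complement replicates 1 to 3. Scaled, these were 46.1, 47.5 and 44.4 CPM in baseline NPSC and 96.1, 87.6 and 134 CPM in complement NPSC. The groups did not overlap, the 3 baseline libraries were nearly equal and complement replicate 3 was the highest. The mean was 46.01 ± 1.56 CPM at baseline and 106 ± 24.9 CPM after complement (SD, n = 3), a log2 fold change of 1.21 (SE 0.20), or 2.31-fold. It was the only one of the 4 genes called by edgeR's quasi-likelihood test (adjusted p = 0.0375 and a log2 fold change beyond 0.7), where 0.103% of all tested genes were called (18, of which 16 were higher, against 21 of 21 with upper-quartile scaling), and by the DESeq2 Wald test, where 0.288% were. The call of DUSP10 was lost in edgeR without baseline replicate 2 (log2 fold change 1.21, adjusted p = 0.266) or baseline replicate 3 (1.17, adjusted p = 0.185).

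DUSP1 (ENSSSCG00000016991), also known as MKP1, is a nuclear phosphatase and a textbook immediate early gene. It lies on the plus strand of chromosome 16 from 55768409 to 55771513, with 4 exon blocks of 2266 bp in all. It had 1238, 1120 and 1152 counts in baseline replicates 1 to 3 and 1288, 998 and 2257 in complement replicates 1 to 3, or 179, 173 and 152 CPM against 287, 238 and 392 CPM. As for DUSP10, the groups did not overlap and complement replicate 3 was the highest, but complement replicates 1 and 2 had about as many raw counts as the deeper baseline libraries. Means were 168 ± 14.5 and 306 ± 78.7 CPM (SD, n = 3) and the log2 fold change was 0.86 (SE 0.24), or 1.82-fold. DUSP1 was not called by edgeR (adjusted p = 0.261) or DESeq2 (adjusted p = 0.104). Without complement replicate 3 the log2 fold change was 0.61 with an adjusted p of 0.0471 in edgeR, short of the fold threshold. Both members above overlap no other gene of the files.

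**Figure D1:**
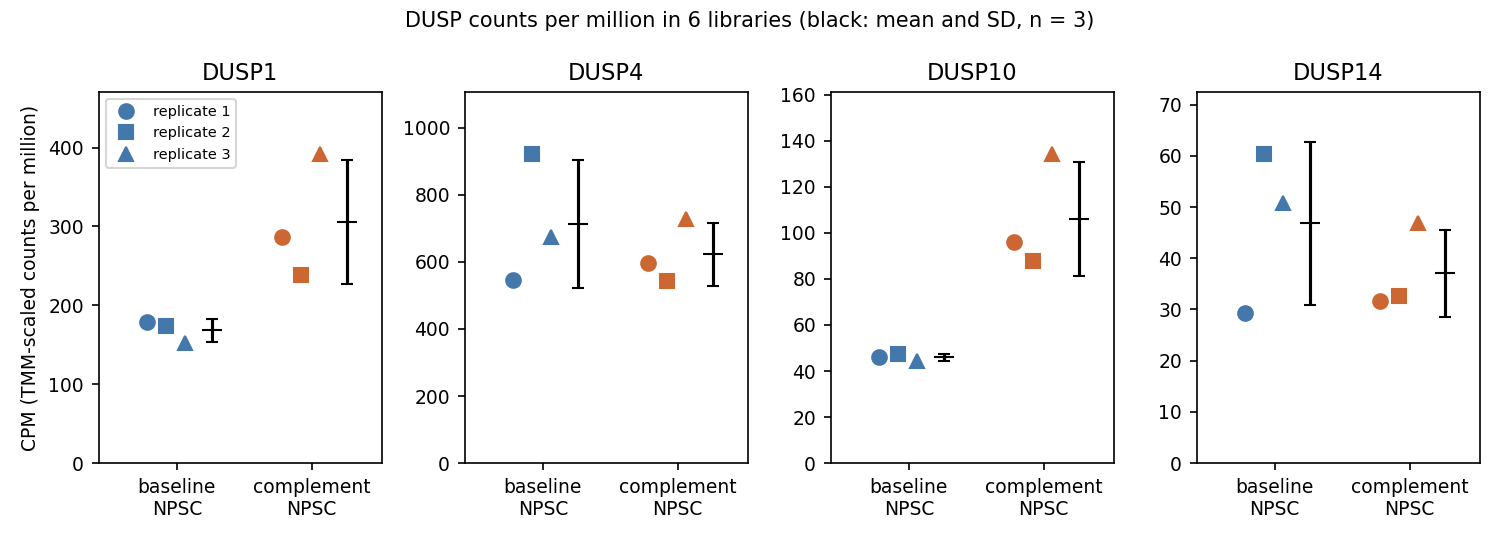
CPM (vertical axis, from 0, scaled separately for each gene) of DUSP1, DUSP4, DUSP10 and DUSP14 in the 3 baseline NPSC (blue) and 3 complement NPSC (orange) libraries, with marker shape for the replicate number and the mean ± SD in black. For DUSP1 and DUSP10 every complement library lies above every baseline library, while for DUSP4 and DUSP14 the groups overlap.

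DUSP4 (ENSSSCG00000015850), the nuclear phosphatase also known as MKP2, lies on the plus strand of chromosome 15 from 62906029 to 62923416, with 4 exon blocks of 5362 bp. It had 3768, 5955 and 5113 counts in the baseline libraries and 2678, 2278 and 4183 in the complement libraries. In CPM these were 546, 922 and 674 against 596, 543 and 727, so all 3 complement values lay within or just below the baseline range. Means were 714 ± 191 and 622 ± 94.3 CPM (SD, n = 3), with a log2 fold change of −0.20 (SE 0.29). DUSP14 (ENSSSCG00000029874), also known as MKP6, lies on the plus strand of chromosome 12 from 40562530 to 40616164, with 4 exon blocks of 1200 bp. It had 202, 390 and 386 counts in the baseline libraries and 142, 137 and 270 in the complement libraries, or 29.3, 60.4 and 50.9 against 31.6, 32.7 and 46.9 CPM. The groups overlapped, with the lowest value of all 6 in baseline replicate 1. Means were 46.8 ± 15.9 and 37.1 ± 8.54 CPM (SD, n = 3), with a log2 fold change of −0.33 (SE 0.25). Neither gene was called (adjusted p = 0.703 for DUSP4 and 0.486 for DUSP14, edgeR). TADA2A, on the minus strand, overlaps the span of DUSP14 but shares 0 bp of exon with it.

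Of the 4 genes, 2 (DUSP1 and DUSP10) were higher in all 3 complement libraries and 0 were lower in all 3. Over all tested genes 8.95% were higher and 8.14% were lower in all 3, and the median log2 fold change was 0.02. The median over the 4 genes was 0.33. Nothing is read from these counts, since the genes were chosen with the comparison known.

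The genes also differed in their spread between plates. At baseline the coefficient of variation over 3 libraries was 3.39% for DUSP10, where counting error alone gives 5.58%, and 8.65% for DUSP1, where it gives 2.92%. It was 26.8% for DUSP4 and 34.01% for DUSP14, where counting error gives 1.42% and 5.54%. For both DUSP4 and DUSP14 the lowest baseline value was in replicate 1 and the highest in replicate 2, and replicate 1 was also the baseline library with the highest olfactory receptor density. In complement NPSC the coefficients lay between 15.2% (DUSP4) and 25.8% (DUSP1), and for each of the 4 genes the highest of the 3 complement values was in replicate 3.

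The make-up of the 4 genes within a library does not depend on scaling between libraries. DUSP4 took 45.6%, 54.2% and 49.8% of their counts per kilobase in the baseline libraries and 36.8%, 37.8% and 33.8% in the complement libraries. DUSP1 took 35.4%, 24.1% and 26.5% and then 41.9%, 39.2% and 43.2%. DUSP10 took 8.10%, 5.88% and 6.91% and then 12.5%, 12.8% and 13.2%. For each of these 3 genes the groups did not overlap. DUSP14 took 10.9%, 15.9% and 16.8% at baseline and 8.73%, 10.2% and 9.76% after complement, again without overlap. Shares of 1 total are tied to each other, so a higher share of DUSP1 lowers the summed share of the others, although that of DUSP10 was higher too.

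**Figure D2:**
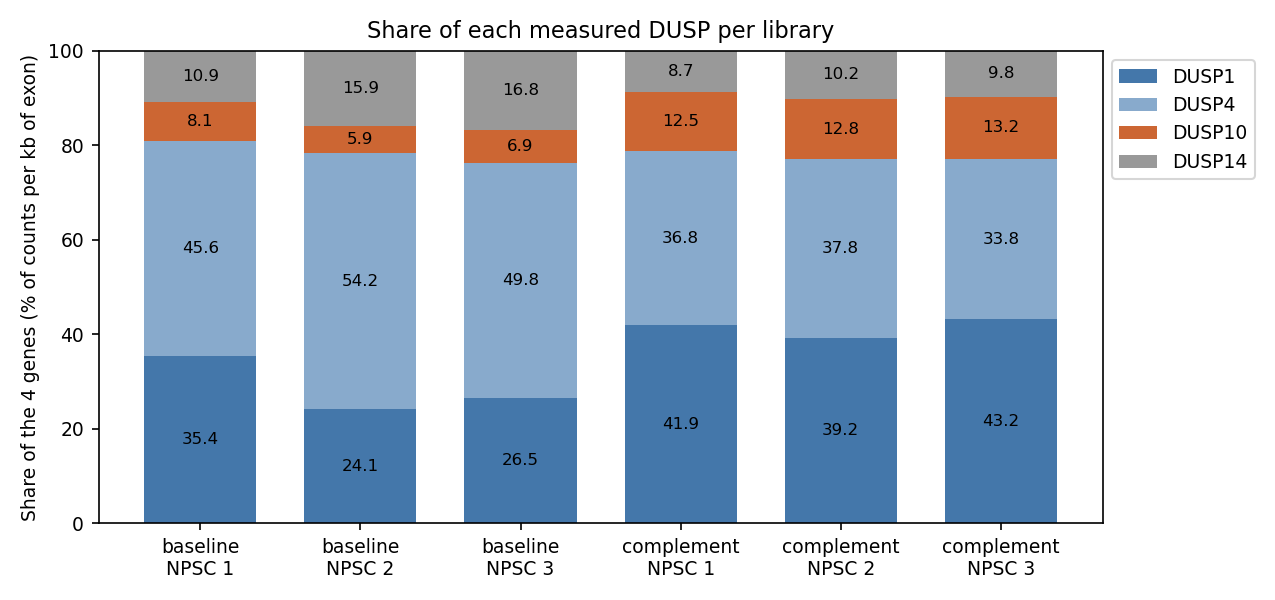
Share of DUSP1, DUSP4, DUSP10 and DUSP14 in the sum of the 4 genes, as percent of counts per kilobase of exon (vertical axis), in each of the 6 libraries. DUSP4 is the largest part of every baseline bar and DUSP1 the largest part of every complement bar.

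Ratios of raw counts between pairs of these genes likewise need no scaling between libraries. DUSP1 had 0.329, 0.188 and 0.225 counts per DUSP4 count in baseline replicates 1 to 3 and 0.481, 0.438 and 0.540 in complement replicates 1 to 3. DUSP10 had 0.0844, 0.0516 and 0.0659 counts per DUSP4 count at baseline and 0.161, 0.161 and 0.185 after complement. Per DUSP1 count, DUSP10 had 0.257, 0.274 and 0.293 counts at baseline and 0.335, 0.368 and 0.342 after complement. None of these ranges overlapped, whereas DUSP14 had 0.0536 to 0.0755 counts per DUSP4 count at baseline and 0.0530 to 0.0645 after complement. The ratios are descriptions of the comparison that was known when the family was chosen.

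The expected background was a small part of the counts of each gene. Over the 6 libraries it came to 1.67% for DUSP4, 2.10% for DUSP1, 5.87% for DUSP14 and 7.51% for DUSP10. For DUSP14 it was 13.3%, 14.1% and 4.29% in complement replicates 1 to 3 and 8.69%, 2.65% and 3.08% in baseline replicates 1 to 3. For DUSP10 it was highest in baseline replicate 1 (11.7%) and complement replicate 2 (11.2%) and lowest in complement replicate 3 (3.18%). After it was subtracted from all genes, edgeR called DUSP10 (log2 fold change 1.48, SE 0.14, adjusted p = 0.00390) and DUSP1 (1.10, SE 0.15, adjusted p = 0.0283), with 0.206% of all tested genes called. With olfactory receptor density as a covariate it called DUSP10 (1.48, SE 0.17, adjusted p = 0.00173) and DUSP1 (1.10, SE 0.19, adjusted p = 0.0292), with 0.36% of all tested genes called. In these fits the log2 fold change of DUSP4 turned to 0.06 and 0.16, and that of DUSP14 was −0.15 and 0.24. The median over all tested genes was −0.00240 and 0.00412 in these fits.

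**Figure D3:**
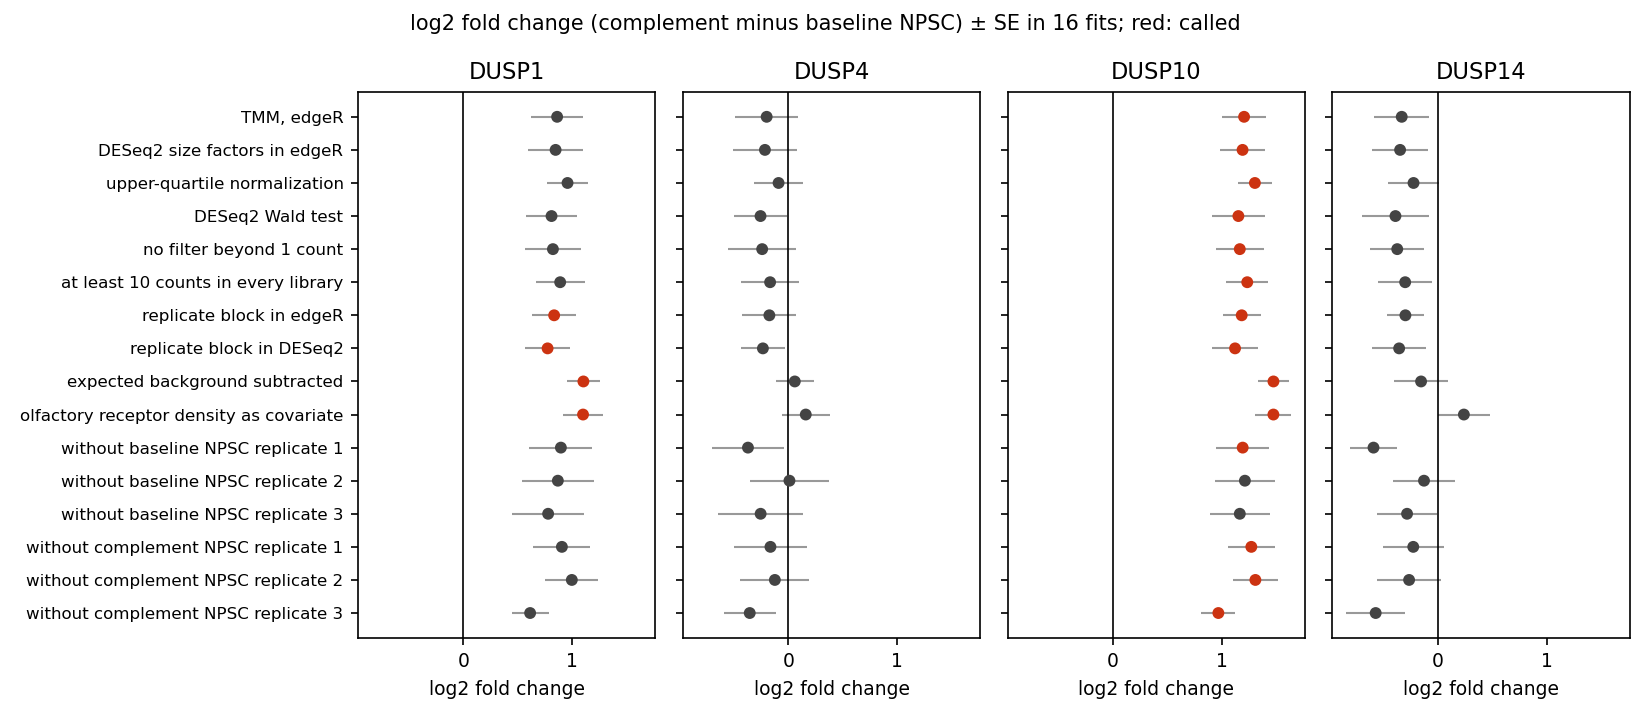
log2 fold change, complement minus baseline NPSC, ± SE (horizontal axis, common to the panels) of the 4 genes in 16 fits, named on the vertical axis, with called values in red. DUSP1 and DUSP10 lie above 0 in every fit, with DUSP10 between 0.97 and 1.48 and DUSP1 between 0.61 and 1.10, while DUSP4 and DUSP14 lie on both sides of 0.

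The other dual-specificity phosphatases of the files did not include a called gene in edgeR's test. Of 17 listed, 10 were counted and 9 tested, and their median log2 fold change was 0.07, with 1 at an unadjusted p under 0.05, and DESeq2 called 0. DUSP3, a small phosphatase that acts on ERK and JNK, had 69.4 CPM at baseline and 65.5 CPM after complement (log2 fold change −0.08, SE 0.20). DUSP28, an atypical member, had 46.3 and 31.4 CPM and was lower in all 3 complement libraries (−0.56, SE 0.21, adjusted p = 0.282, edgeR). DUSP9, a cytoplasmic ERK phosphatase of the same subfamily as DUSP6, had 29 to 70 counts per library, of which 76.3% over the 6 libraries were expected background.

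The rest of the MAP kinase pathway was taken from 11 lists with 178 genes, of which 132 were counted and 125 tested. edgeR called 4 of the 125 higher (MAP3K8, JUNB, EGR1 and EGR3) and 0 lower, where 0.103% of all tested genes were called. DESeq2 called 5 higher and 1 lower, where 0.288% of all genes it tested were called. Without complement replicate 3 edgeR called 7 higher and 8 lower, where 8.35% of all tested genes were called. The median log2 fold change over the 125 was −0.01. At an unadjusted p under 0.05 there were 26 of the 125 and 2658 of all 17512 tested genes.

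Upstream, 20 receptors and 13 ligands were tested and 0 were called by edgeR, with 4 and 3 at an unadjusted p under 0.05, and DESeq2 called 0 of either. With olfactory receptor density as a covariate, edgeR called 2 receptors higher, named after their values were seen: BDKRB2, a bradykinin receptor (48.0 and 90.1 CPM, adjusted p = 0.0184), and IL1R1, an interleukin-1 receptor whose groups overlapped (98.7 and 126 CPM, adjusted p = 0.0292). Of the 25 receptors in the files, 5 (EGFR, IGF1R, TNFRSF1B, S1PR1 and C3AR1) had 0 counts in every library, although 9.88 to 53.1 counts per library were expected from background alone, so no level is read from these zeros. TNFRSF1A, a TNF receptor, had 231 CPM at baseline and 165 CPM after complement, and FGFR1, a receptor of fibroblast growth factors, had 193 and 182 CPM. Of the ligands, HBEGF, which binds the EGF receptor, had 66.8 and 83.6 CPM, and PDGFA had 44.1 and 34.2 CPM.

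Among the kinases of the 4 lists (MAP kinases and the tiers around them), edgeR called only MAP3K8, which activates the ERK branch downstream of inflammatory receptors. It rose from 22.8 to 57.8 CPM (log2 fold change 1.34, SE 0.22, adjusted p = 0.0306, edgeR), with 21.7% of its counts expected as background. The other 22 tested kinases of its tier were not called by edgeR, although 9 of the 23 had an unadjusted p under 0.05 (5 with a higher and 4 with a lower mean after complement). Of the 5, MAP3K15 and MAP3K19 had 75.5% and 91.1% of their counts expected as background, and the log2 fold change of MAP3K15 went from 0.70 to 0.04 with the covariate. DESeq2 called MAP3K21 lower (113 and 68.9 CPM). MAP3K1, the kinase of this tier with the most counts, had 198 CPM at baseline and 108 CPM after complement (log2 fold change −0.87, SE 0.24, adjusted p = 0.261, edgeR), and TAOK1 had 119 and 98.9 CPM. None of 6 MAP kinase kinases was called, with 0 at an unadjusted p under 0.05 and 0 called by DESeq2. MAP2K2, an activator of ERK, had 138 and 122 CPM, and MAP2K4, an activator of JNK, had 81.8 and 69.1 CPM. Of 7 tested MAP kinases, typical and atypical, edgeR and DESeq2 called 0, with 1 at an unadjusted p under 0.05. MAPK6, an atypical MAP kinase, had 179 and 163 CPM and MAPK14 (p38 alpha) 91.6 and 71.7 CPM, the latter named after its values were seen.

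Downstream, 0 of 11 MAP kinase-activated kinases were called by edgeR or DESeq2, with 0 at an unadjusted p under 0.05. MAPKAPK2, a substrate of p38, had 205 and 204 CPM, and RPS6KA3, a substrate of ERK, had 83.0 and 93.6 CPM. Of 15 transcription factors on which MAP kinases act, edgeR called 3 higher, where 0.103% of all tested genes were called, and DESeq2 called the same 3. At an unadjusted p under 0.05 there were 4, with EGR2 (19.5 and 39.3 CPM, adjusted p = 0.256, edgeR) beside the 3. EGR2, named after its values were seen, was higher in all 3 complement libraries. In the whole pathway, edgeR calls fell from 4 to 2 with DESeq2's size factors and to 1 without baseline replicate 2. EGR1 went from 172 to 698 CPM (log2 fold change 2.02, SE 0.36, adjusted p = 0.0455, edgeR). Its range was 134 to 209 CPM at baseline and 452 to 1163 CPM after complement, with a complement median of 479 CPM. EGR3 went from 11.5 to 47.6 CPM (2.06, SE 0.29, adjusted p = 0.00963, edgeR) and JUNB, a subunit of AP-1, from 191 to 515 CPM (1.43, SE 0.25, adjusted p = 0.0455, edgeR). FOSL1, also a subunit of AP-1, had 356 and 484 CPM and was not called.

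The lists of feedback regulators of ERK, other phosphatases and scaffolds gave 0 calls in edgeR's test. Of 6 tested genes in the list of Sprouty, Spred and other ERK feedback inhibitors, 2 had an unadjusted p under 0.05 (IER3 and SPRY2) and DESeq2 called 1, IER3. IER3, an ERK substrate also known to prolong ERK activity, had 247 CPM at baseline and 698 CPM after complement (2.83-fold, adjusted p = 0.0891, edgeR). SPRY2, a Sprouty inhibitor named after its values were seen, had 73.2 and 128 CPM (1.75-fold, adjusted p = 0.261, edgeR). Both genes were called higher after background subtraction (adjusted p = 0.0226 for IER3 and 0.0430 for SPRY2) and with the covariate (0.0114 and 0.0371). NF1, a RAS GTPase-activating protein, had 416 and 370.3 CPM. Of 9 other phosphatases of MAP kinases, 1 had an unadjusted p under 0.05 and DESeq2 called 0, with PTPN11 at 260.2 and 233 CPM and PPP2CB at 138 and 114 CPM. Of 6 scaffolds, 1 had an unadjusted p under 0.05 and DESeq2 called 0, with MAPK8IP1 at 153 and 138 CPM and KSR1 at 89.4 and 97.5 CPM.

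**Figure D4:**
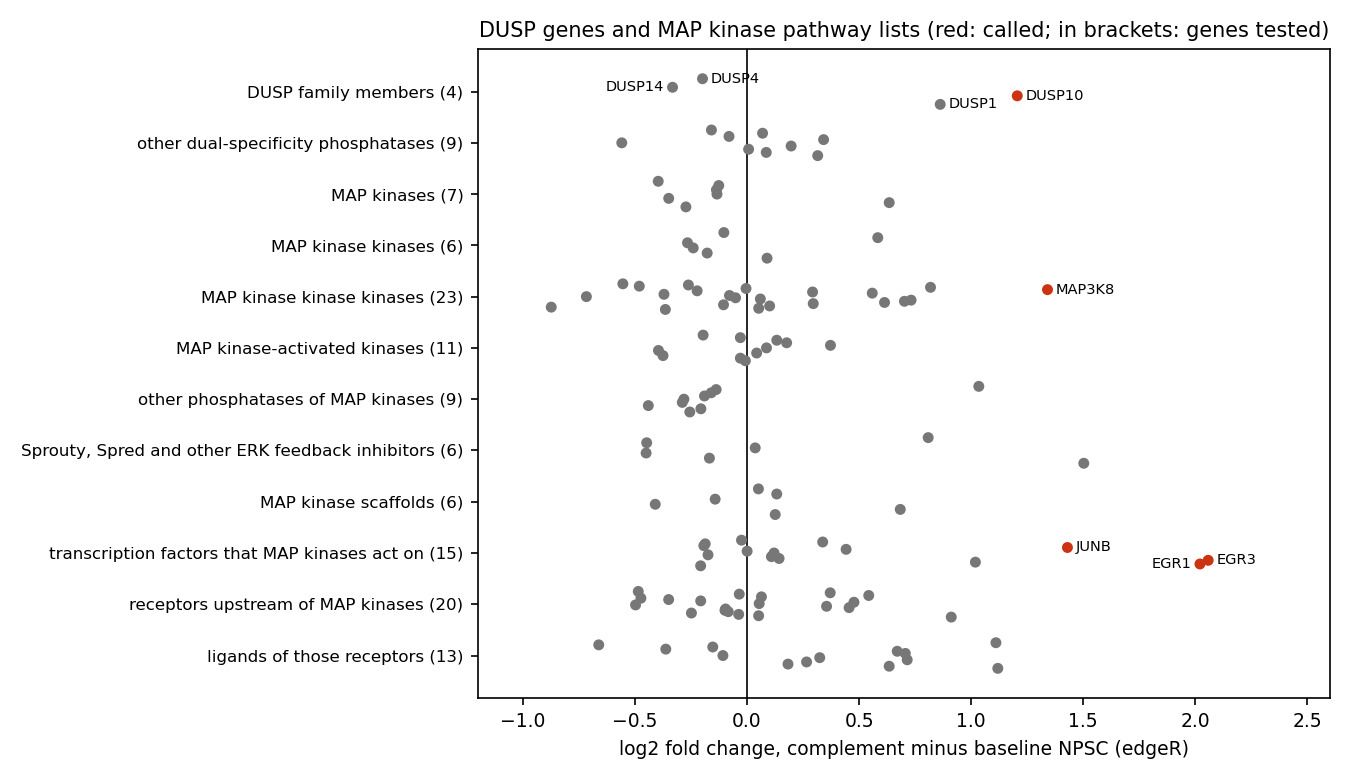
log2 fold change, complement minus baseline NPSC (horizontal axis), of each tested gene of the DUSP family and of the 11 MAP kinase pathway lists (rows, with the number tested), with genes called by edgeR in red. DUSP10, MAP3K8, JUNB, EGR1 and EGR3 are the called genes, and most other genes lie near 0.

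The genes whose pattern over the 6 libraries was most like that of DUSP10 and DUSP1 were found by Pearson's r of log2 CPM among 9991 named genes with a mean of at least 5 CPM. Each r rests on 6 libraries that fall into the groups compared, so it is a description. For DUSP10 the nearest were JUNB (r = 0.998), NR4A3, an orphan nuclear receptor (0.989), and MSC, a transcription factor (0.989). JUNB had 193, 195 and 186 CPM in the baseline libraries and 483, 408 and 653 CPM in the complement libraries, between 4.10 and 5.03 times the CPM of DUSP10 in all 6. For DUSP1 the nearest were PER1, a circadian clock gene (r = 0.996), KDM6B, a histone demethylase (0.994), and F3, tissue factor (0.993). PER1 had 127, 136 and 113 CPM at baseline and 234, 191 and 321 CPM after complement, between 0.709 and 0.819 times the CPM of DUSP1. Of the 9991 genes, 84 reached an r above 0.9 with DUSP1 and 82 with DUSP10.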

How the data were processed

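RNA of 6 plates was sequenced by a service. The authors deposited raw counts per Ensembl gene, without normalization, and a Length column with exon bp. The submitters' processing notes name Trimmomatic 0.36, STAR 2.5.2b and featureCounts of Subread 1.5.2; the genome build and strand setting are not given in the sources used here. Counts were kept by filterByExpr, scaled by TMM and tested with edgeR 4.0.16 (glmQLFit, quasi-likelihood F-test) in R 4.3.3, and p-values were adjusted over the 17512 genes tested (Benjamini-Hochberg). Calls needed an adjusted p below 0.05 together with an absolute log2 fold change above 0.7. The SE is the log2 fold change divided by the square root of F. DESeq2 1.42.0 gave the Wald test, which the study used beside Advaita iPathwayGuide, a tool not run here. The study lists DUSP1 among its changed genes through iPathwayGuide alone. Log2 CPM used a prior count of 2. Symbols were matched for 11804 of 25149 identifiers. Expected background used 48 olfactory receptor genes with 45945 bp of exon, and the covariate was their log2 density per total library count. The members, lists and alternatives were chosen with earlier results of these data known. The rule named every member, the 2 highest genes of each list, called genes, and the 3 genes nearest in pattern to DUSP1 and DUSP10 (DUSP6 was not analysed here). 1 gene that the rule names is not reported here. No sequence was at hand to print. The procedure was tested on simulated data. Plots were drawn with matplotlib 3.10.9.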

Additional observations from a re-analysis of the deposited data

How the results depend on the processing

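DUSP10 was higher in complement NPSC in all 15 alternatives (log2 fold change 0.97 to 1.48, adjusted p 6.23e-09 to 0.266), as was DUSP1 (0.61 to 1.10, adjusted p 0.00179 to 0.671). DUSP10 was called in 13 of them and DUSP1 in 4, both replicate block fits and both background fits, with adjusted p of 0.00179 (edgeR block), 0.0102 (DESeq2 block), 0.0283 (subtraction) and 0.0292 (covariate). The log2 fold change of DUSP4 turned to 0.060 after subtraction and 0.16 with the covariate, and lay between −0.37 (without baseline replicate 1) and 0.011 (without baseline replicate 2) when a library was left out, and that of DUSP14 turned to 0.24 with the covariate and lay between −0.59 (baseline replicate 1 left out; −0.57 for complement replicate 3) and −0.13 (baseline replicate 2 left out). The cause was not tested. The count of called DUSP genes was 1, and 2 in each of those 4 fits, and 0 to 1 when a library was left out. The count of all called genes was 18, and 63 with DESeq2, 31 with no filter, 31 after subtraction, 63 with the covariate and 9 to 1540 without 1 library, the most without complement replicate 3 and 327 without baseline replicate 1. The count of called pathway genes was 4, and 2 with DESeq2's size factors, 8 with the covariate and 1 to 15 without 1 library: 7 without baseline replicate 1, 1 without baseline replicate 2, 2 without baseline replicate 3 or complement replicate 1, and 15 (7 higher and 8 lower) without complement replicate 3.

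Libraries share replicate numbers, and a replicate block gave 1575 called genes, 11 of them in the pathway (9 higher and 2 lower), in edgeR and 194, with 9 (6 higher and 3 lower), in DESeq2. In edgeR's block fit the 2 lower were MAP3K1 (adjusted p = 0.000329) and MAP3K21 (adjusted p = 0.00163). Of 10 Sertoli markers, this fit called 1 higher (TF) and 3 lower (GATA4, INHA and CTSL). Without complement replicate 3 edgeR called 3 Sertoli markers lower, where 8.35% of all tested genes were called. Deviations of same-numbered libraries from their group means correlated at 0.46, 0.03 and 0.48 over genes, so the numbers were not taken to pair the plates, although each library correlated best with its own number except baseline replicate 2 and complement replicate 2. Upper-quartile normalization shifted the median over all genes by 0.11 (log2) and changed no call of a DUSP gene. Shares without division by exon length were 17.8% and 28.3% for DUSP1, 72.7% and 58.4% for DUSP4, 4.84% and 9.85% for DUSP10 and 4.73% and 3.45% for DUSP14, at baseline and after complement, and the share of DUSP10 after complement was 12.3% after subtraction. At 137 to 5955 counts per library, counting error was smaller than the spread between plates for all 4 genes, except DUSP10 at baseline.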
